A study of Homo sapiens with 2 samples.

Results

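The genes described here encode the Fanconi anaemia pathway, homologous recombination and the DNA damage checkpoint, 42 genes chosen by name and found by their NCBI gene IDs among the 27685 IDs of the deposited tables. They were measured in H1299, a line from a human non-small cell lung carcinoma. The data were 1 RNA-seq library of H1299 cells given 5 mM metformin, a biguanide antidiabetic drug, and 1 library of H1299 cells given no metformin (control). Both groups are the same line in the same medium, and how long metformin was given is not stated in the labels. Values are TPM, the usual length-corrected abundance, which is a share of all transcripts in its library. With 1 library in each group no difference has a replicate check and no test was possible. The 95% intervals given with ratios are exact (Clopper-Pearson) and cover the counting of reads only.

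Fanconi proteins repair crosslinks between the strands of DNA. A core complex with ubiquitin ligase activity marks the FANCD2-FANCI clamp at a stalled fork, and nucleases and recombination proteins then restore the duplex. Homologous recombination resects a broken end, builds a protein filament on it with the help of BRCA2, and copies the sister chromatid, which is why its genes are mostly used in S and G2 phase. The kinases ATM and ATR report damage to the checkpoint kinases CHEK2 and CHEK1, which delay the cell cycle.

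Sequencing depth was 6.40 Gb aligned (about 31.7 M read pairs) for metformin and 5.80 Gb (about 28.7 M) for control. The epithelial keratins KRT8 and KRT18 and the intermediate filament gene VIM were abundant in both libraries, with 521, 954 and 4962 TPM in metformin and 269, 553 and 4378 TPM in control. Markers of blood, vessel, connective tissue, liver and surfactant-producing lung cells (PTPRC, PECAM1, COL3A1, ALB and SFTPC) were listed at 0.0311 TPM or less, and the lung lineage factor NKX2-1 at 0.307 TPM in metformin and 0.491 TPM in control.

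Of the 42 genes, 40 were lower in the metformin library than in control and 2 were higher. Over all 14078 genes with at least 1 TPM in a library, log2(TPM + 1) was lower in metformin than in control for 59.7% and higher for 40.3%. A total of 19 of the 42 genes were lower by 1.5-fold or more on this log2 scale, against 7.03% of all measured genes, and none was higher by 1.5-fold, against 5.40%. FANCB, FANCL and BLM were lower by 2-fold or more, against 1.24% of all measured genes, and none was higher by 2-fold, against 1.51%. BRCA1, at 0.485 of control in plain TPM, had a log2 difference of -0.99 with the pseudocount and was not counted. The median log2 difference over the 42 genes, metformin minus control, was -0.52, beside a median of -0.08 over all measured genes. The 95% order-statistic interval of the former, over the genes, was -0.65 to -0.34. That interval treats the genes as independent draws, which a list chosen by name is not, and covers no error between libraries. Summed over the 42 genes, the abundance was 1396 TPM in metformin and 2036 TPM in control, a ratio of 0.686. The counting interval of the TPM ratio lay wholly below 1 for 37 genes and wholly above 1 for TP53BP1. It included 1 for FANCF, PALB2, RAD51D and ATM. The ATM interval rests on about 295 and 276 estimated pairs in metformin and control, against 2500 and 2392 for ATR at similar TPM. The transcript length used for ATM was far below its canonical 12915 nt, so its interval can be too wide. All 42 genes passed the minimum of 1 TPM in a library, 41 of them already in control, while FANCF passed only through metformin.

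**Figure D1:**
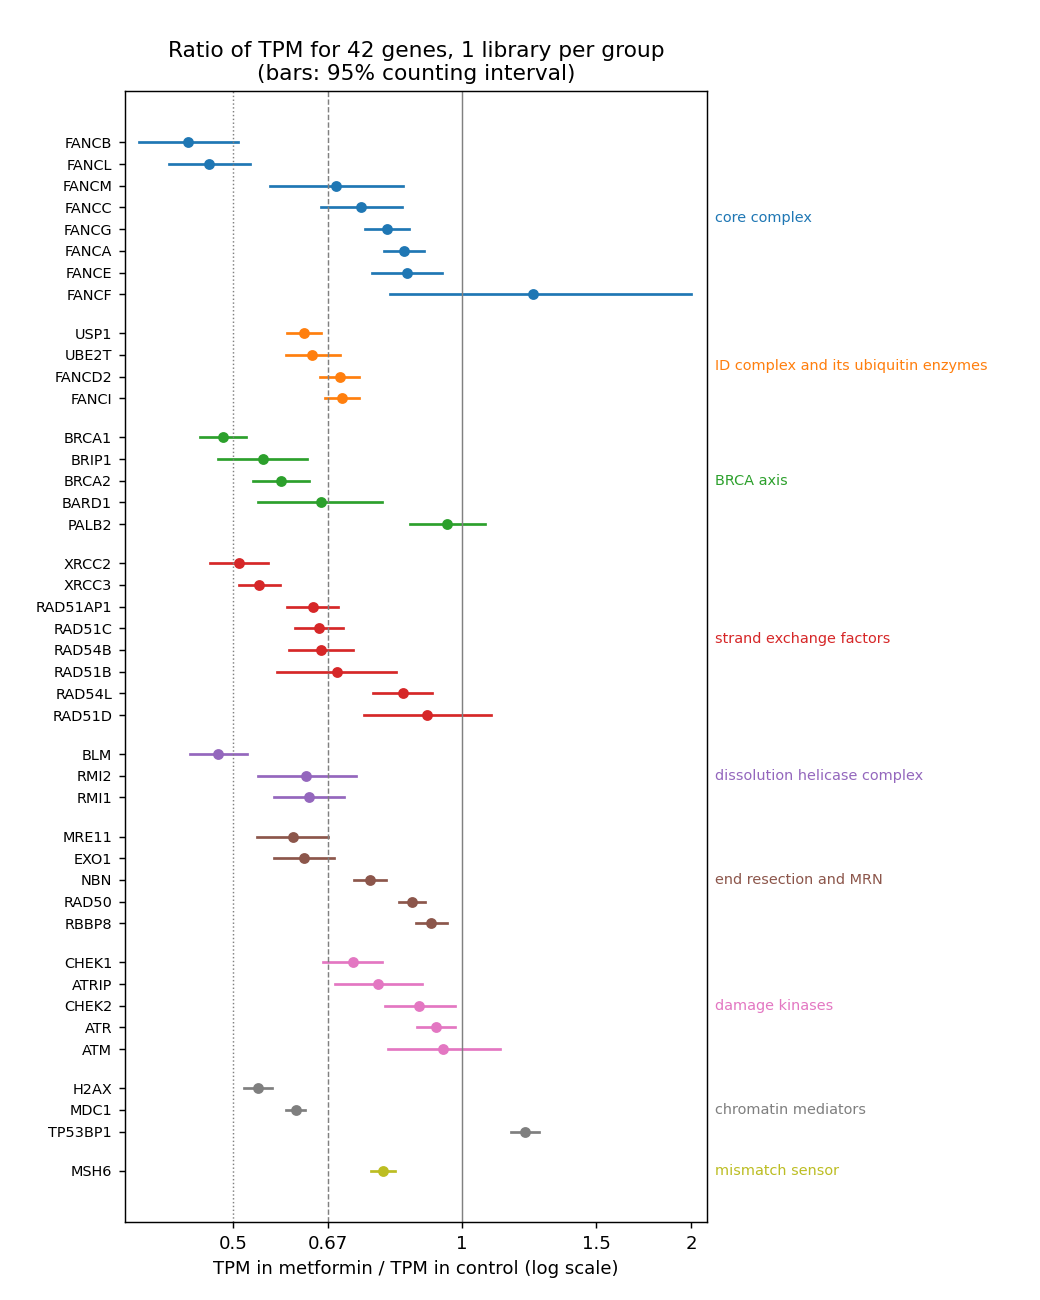
Ratio of TPM in the metformin library to TPM in the control library for each of the 42 genes, grouped by role, on a log axis. Points are ratios, bars are 95% counting intervals, and lines mark a ratio of 1 (solid), 1.5-fold lower (dashed) and 2-fold lower (dotted); FANCB lies lowest at 0.436, and TP53BP1 at 1.21 is the gene whose interval lies above 1.

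These counts depended on the scale set between the libraries. Relative to the median of genes at 10 TPM or more, which was lower by 0.09 in metformin, 12 of the 42 genes were lower by 1.5-fold, against 4.99% of all measured genes, and the split over all measured genes turned from 43.4% higher among those past 1.5-fold to 58.9% higher. With the trend over GC content and transcript length removed, 10 were lower by 1.5-fold, against 5.40% of all genes with both properties. The number of genes below control, 40 as deposited, was 38 after centring, where PALB2 and ATM turned above 0, and 36 with the trend removed, where ATR and RBBP8 did so too, all by 0.04 or less. The share of all measured genes below control was 49.6% after centring and 61.0% with the trend removed. FANCB, FANCL, BRCA1, BLM, XRCC2, XRCC3, H2AX and MDC1 remained lower by 1.5-fold under every alternative in which they were included.

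The genes were lower in metformin beside a lower level of proliferation genes. MKI67, which encodes the proliferation marker Ki-67, had 81.2 TPM in metformin and 161 TPM in control. All 20 S phase marker genes and all 20 G2 and M phase marker genes were below their control values, with median log2 differences of -0.69 and -0.83. In each of these lists 15 genes were lower by 1.5-fold or more. Over all measured genes 59.7% were below control and 7.03% lower by 1.5-fold. CDKN1A, which encodes the cell cycle inhibitor p21, had 107 TPM in metformin and 60.6 TPM in control. A smaller share of cells in S and G2 phase and less RNA per cell cannot be told apart in bulk libraries, and the part of either in the values below was not tested.

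Promoter windows from RefSeq (build GRCh38.p14, from 250 bases before to 50 bases after each annotated start) were matched for 38 of the 42 genes; FANCI, RMI2, NBN and RAD54B had none in the table. Windows were searched on both strands for the letters of elements known from cell cycle promoters. The E2F site TTTCCCGC was in 4 of the 38 genes (10.5%), in 3.27% of 10898 measured genes and in 1.98% of all 27305 genes with a window. TTTGGCGC, another E2F site, was in 0 of the 38, in 1.38% of measured genes and in 0.795% of all genes. The CCAAT box CCAAT was in 57.9% of the 38, in 43.3% of measured genes and in 39.7% of all genes. The GC box GGGCGG was in 78.9%, 77.2% and 48.3%, and the CHR element TTTGAA in 18.4%, 13.1% and 18.2%. An E2F site TTTCCCGC that is followed by CC also spells a GC box. The genes with an E2F site had a median log2 difference of -0.47, beside -0.54 for those without it, and those with a CHR element had -0.68, beside -0.47 without. A match is a run of letters, not shown to be a bound site.

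The 30 bases around each TTTCCCGC match are shown because these are the genes of the set that hold it, with the match in capitals (on the gene's own strand, 5′ to 3′). They are FANCC at chr9:95317737-95317766 (minus strand), FANCD2 at chr3:10026424-10026453 (plus), MSH6 at chr2:47783137-47783166 (plus) and XRCC2 at chr7:152676102-152676131 (minus), all on GRCh38.p14. XRCC2 stood at 0.509 of its control TPM, FANCD2 at 0.690, FANCC at 0.737 and MSH6 at 0.787. The match began 46 bases before the start in FANCC and 2 before it in FANCD2, and after the start in MSH6 and XRCC2.
FANCC: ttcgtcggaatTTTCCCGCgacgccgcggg
FANCD2: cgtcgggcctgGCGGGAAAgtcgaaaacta
MSH6: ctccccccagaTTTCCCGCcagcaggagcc
XRCC2: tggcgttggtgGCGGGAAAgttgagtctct

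The 250 bases before the start are shown for BLM (chr15:90717096-90717345, plus strand) and H2AX (chr11:119095466-119095715, minus strand), which were among the lowest relative to control, and for TP53BP1 (chr15:43510641-43510890, minus strand), which was higher in metformin. Capitals mark the CCAAT box, the GC box and the CHR element, on either strand. BLM held 3 CCAAT boxes and 2 GC boxes. H2AX held 4 CCAAT boxes and 1 CHR element. TP53BP1, at 1.21 times its control TPM, held 1 CCAAT box and 2 GC boxes.
BLM: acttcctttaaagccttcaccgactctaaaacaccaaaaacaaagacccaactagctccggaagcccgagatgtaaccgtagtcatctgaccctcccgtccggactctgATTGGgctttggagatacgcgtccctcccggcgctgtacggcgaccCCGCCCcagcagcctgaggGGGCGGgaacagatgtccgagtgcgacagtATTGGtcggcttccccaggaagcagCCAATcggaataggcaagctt
H2AX: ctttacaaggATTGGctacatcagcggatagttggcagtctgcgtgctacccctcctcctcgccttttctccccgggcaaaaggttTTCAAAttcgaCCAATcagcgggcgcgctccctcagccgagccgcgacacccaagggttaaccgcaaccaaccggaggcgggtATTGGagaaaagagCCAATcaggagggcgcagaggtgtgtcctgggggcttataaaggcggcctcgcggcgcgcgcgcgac
TP53BP1: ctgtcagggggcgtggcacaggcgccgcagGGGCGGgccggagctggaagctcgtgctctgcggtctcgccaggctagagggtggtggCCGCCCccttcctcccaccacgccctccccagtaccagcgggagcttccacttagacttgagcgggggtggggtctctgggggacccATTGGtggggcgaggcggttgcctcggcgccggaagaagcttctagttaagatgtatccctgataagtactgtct

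In the Fanconi core complex FANCB and FANCL were lower relative to control than the other subunits, with counting intervals that did not overlap theirs. In the coverage column the log2 difference of FANCB was -0.64, against -1.08 in TPM, which is close to that of FANCM (-0.59) and short of 2-fold. FANCB, an X-linked subunit that holds the ligase, had 6.39 TPM in metformin and 14.6 TPM in control, a ratio of 0.436 (95% counting interval 0.376 to 0.507). FANCL, the ubiquitin ligase itself, had 19.3 TPM in metformin and 41.4 TPM in control, a ratio of 0.465 (0.412 to 0.526). FANCB lies on chromosome X at 14861529 to 14891191 and FANCL on chromosome 2 at 58386378 to 58468515 of hg19. FAAP100, their partner in the module, went the other way, with 23.5 TPM in metformin and 17.0 TPM in control, a ratio of 1.38 (values of genes outside the 42 come from lists of the same pathways). FANCA and FANCG, which form another module with FAAP20, had 47.2 and 47.3 TPM in metformin, against 56.3 and 59.4 TPM in control, ratios of 0.839 and 0.797. FAAP20 had 140 TPM in metformin and 126 TPM in control.

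The third module of the core complex joins FANCC, FANCE and FANCF. FANCC had 13.2 TPM in metformin and 17.9 TPM in control, and FANCE 21.1 TPM in metformin and 24.9 TPM in control, ratios of 0.737 and 0.845. FANCF was the least abundant of the 42 genes, with 1.09 TPM in metformin and 0.880 TPM in control, and its ratio of 1.24 had an interval that ran from 0.804 to above 1. A difference in FANCF was not detectable at this depth. FANCM, a DNA translocase that brings the complex to damaged forks, had 4.08 TPM in metformin and 5.97 TPM in control, a ratio of 0.683. The TPM ratio of FANCL to FANCA was 0.408 in metformin and 0.736 in control, whereas that of FANCB to FANCL was 0.332 in metformin and 0.354 in control. The median log2 difference over the 8 core subunits was -0.37.

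The clamp that the core complex marks was lower in both its parts by nearly the same factor. FANCD2 had 28.9 TPM in metformin and 41.9 TPM in control, a ratio of 0.690 (0.651 to 0.731). FANCI, its partner, had 41.1 TPM in metformin and 59.2 TPM in control, a ratio of 0.695 (0.660 to 0.732). Their TPM ratio to each other, FANCD2 over FANCI, was 0.704 in metformin and 0.709 in control. The enzymes that add and remove the ubiquitin were lower together too. UBE2T, the conjugating enzyme, had 83.4 TPM in metformin and 131 TPM in control (ratio 0.635), and USP1, the deubiquitinase, 50.7 TPM in metformin and 82.0 TPM in control (ratio 0.619). RFWD3, a ubiquitin ligase of the same pathway, stood at 0.613 of control, and CENPX, a partner of FANCM, at 0.532.

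**Figure D2:**
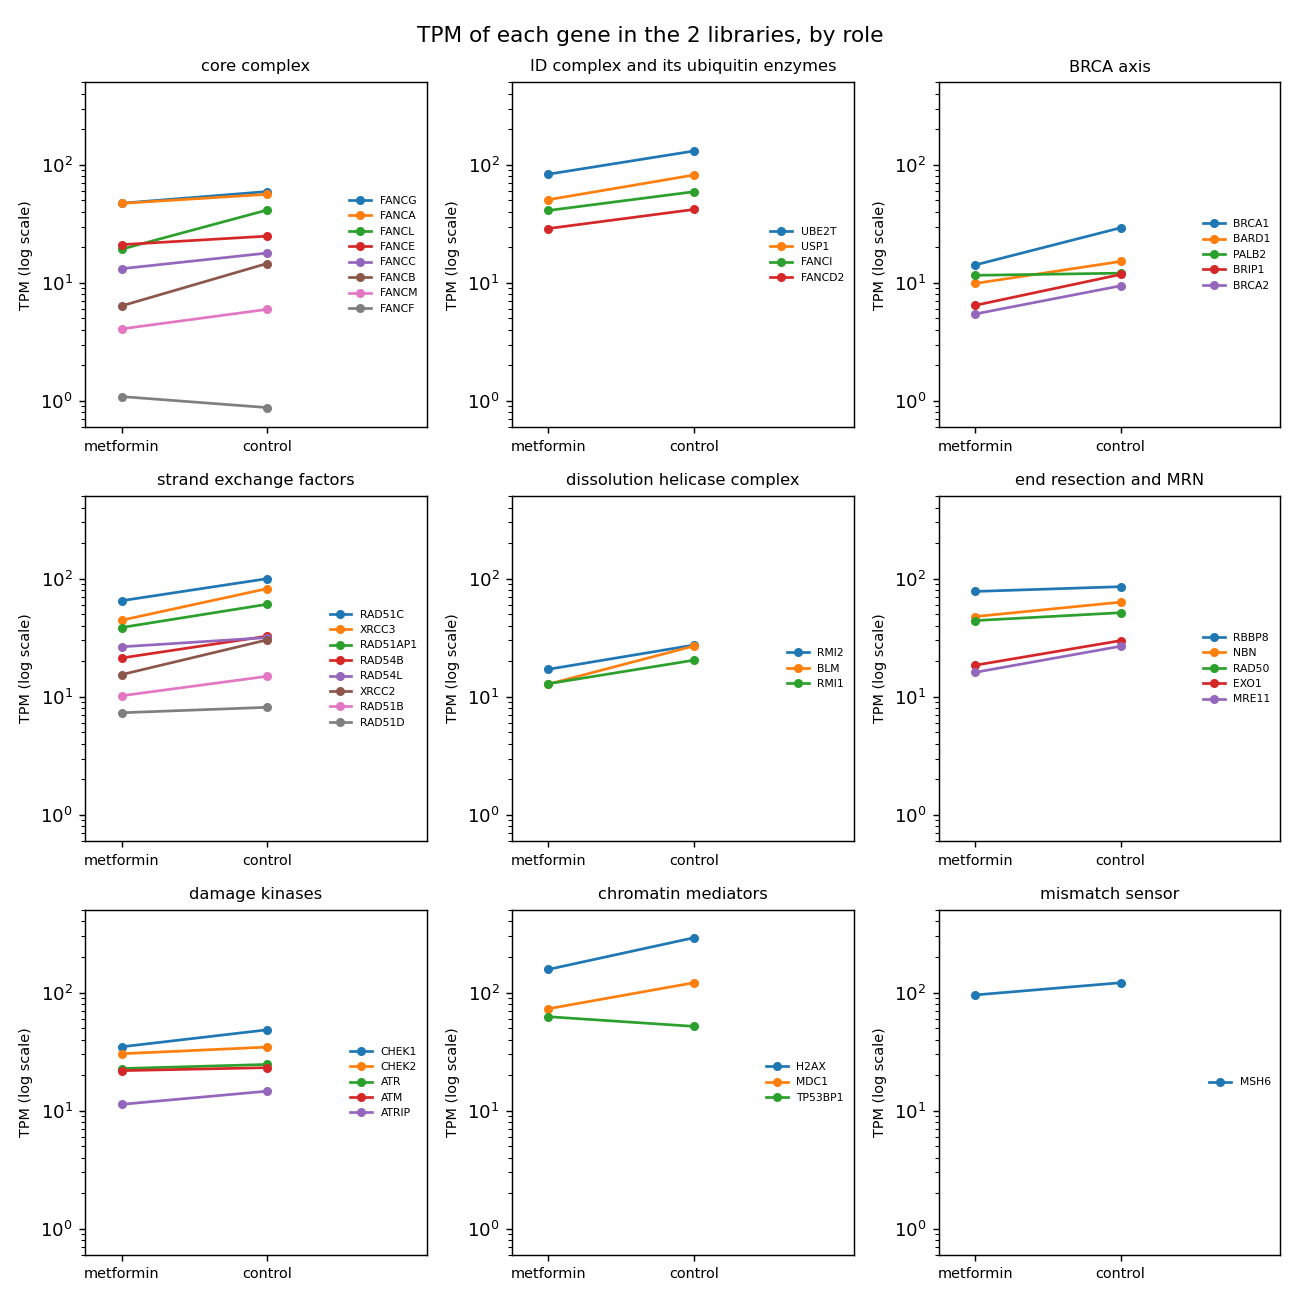
TPM of each of the 42 genes in the metformin library and in the control library on a log axis, 1 panel per role, with a line joining the values of 1 gene. Most lines run upward to control, at slopes that differ among genes. Those of PALB2, ATM, ATR, RBBP8 and RAD51D are the most level of these, and those of TP53BP1 and FANCF run downward.

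BRCA1 and its partners differed among themselves. BRCA1, a ubiquitin ligase that acts in end resection, had 14.2 TPM in metformin and 29.3 TPM in control, a ratio of 0.485 (0.452 to 0.520). BARD1, its obligate partner, had 9.90 TPM in metformin and 15.2 TPM in control, a ratio of 0.653 (0.539 to 0.785). BRIP1, a helicase that binds BRCA1, had 6.46 TPM in metformin and 11.8 TPM in control, a ratio of 0.547. The intervals of BRCA1 and BARD1 did not overlap, and the ratio of BRCA1 to BARD1 was 1.44 in metformin and 1.93 in control. In the coverage column these genes lay closer together. There the log2 difference was -0.71 for BRCA1 and -0.56 for BARD1, against -0.99 and -0.57 in TPM. BRCA2, a mediator that prepares single-stranded DNA for strand exchange, had 5.46 TPM in metformin and 9.45 TPM in control, a ratio of 0.578 (0.530 to 0.629). PALB2, which links BRCA1 to BRCA2, was the exception, with 11.6 TPM in metformin and 12.1 TPM in control, a ratio of 0.956 (0.853 to 1.07). BRCA1 lies on chromosome 17 at 41196312 to 41277500 and BRCA2 on chromosome 13 at 32889617 to 32973809 of hg19.

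Among the strand exchange factors, XRCC2 and XRCC3 were lowest relative to control. XRCC2, which acts in the BCDX2 complex, had 15.4 TPM in metformin and 30.3 TPM in control, a ratio of 0.509 (0.466 to 0.555). XRCC3, which acts with RAD51C, had 44.5 TPM in metformin and 82.3 TPM in control, a ratio of 0.541 (0.508 to 0.576). XRCC3 shares exonic positions with KLC1 on the other strand, which was listed at 275 TPM in metformin and 189 TPM in control. Reads of KLC1 counted without regard to strand would therefore add to XRCC3 in the opposite direction, and the labels do not say if strand was used. The same holds for FANCI, opposite POLG (39.5 TPM in metformin and 27.0 TPM in control), and for RAD54L, opposite LRRC41 (55.1 TPM in metformin and 38.4 TPM in control). FANCL lies opposite VRK2 (36.4 TPM in metformin and 42.1 TPM in control) and MDC1 opposite TUBB (378 TPM in metformin and 395 TPM in control), genes that were lower in metformin too. The 22 genes with no exon overlap found, matching genes by symbol, were all below their control values, against 59.7% of all measured genes. RAD51D and MRE11 are among the 22, though another listed gene overlaps the span of each on the same strand. FANCF and TP53BP1, the genes of the set that were higher in metformin, were left out for exon overlaps. The median log2 difference over the 22 genes was -0.64.

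RAD51B, RAD51C and RAD51D form the BCDX2 complex with XRCC2, and its 4 subunits did not share a common ratio. RAD51C, which also pairs with XRCC3, was the most abundant of them, with 65.1 TPM in metformin and 100 TPM in control, a ratio of 0.648. RAD51B had 10.2 TPM in metformin and 14.9 TPM in control, a ratio of 0.684. RAD51D had 7.32 TPM in metformin and 8.14 TPM in control, a ratio of 0.899 (0.743 to 1.09). The read-through model RAD51L3-RFFL covers RAD51D on the same strand, and the sum of these genes was 9.98 TPM in metformin and 10.1 TPM in control. The interval of XRCC2 did not overlap that of RAD51D, and the ratio of RAD51D to XRCC2 was 0.475 in metformin and 0.269 in control.

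RAD51AP1, which stimulates strand invasion, had 38.6 TPM in metformin and 60.7 TPM in control, a ratio of 0.636 (0.589 to 0.687). The DNA translocases RAD54L and RAD54B, which act during strand invasion, differed in their ratios. RAD54L had 26.5 TPM in metformin and 31.7 TPM in control, a ratio of 0.836 (0.763 to 0.914), and RAD54B 21.3 TPM in metformin and 32.6 TPM in control, a ratio of 0.653 (0.592 to 0.719). RAD54B lay just past the 1.5-fold line, with a log2 difference of -0.59, and BARD1 just short of it at -0.57. Over the 8 strand exchange factors the median was -0.60, and 5 were lower by 1.5-fold or more, against 7.03% of all measured genes. RAD51AP1, RAD51C and RAD54B were short of 1.5-fold after centring, with trimmed mean scaling and with the trend over GC content and length removed. RAD51C and RAD54B were also short of it in the FPKM and coverage columns.

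BLM, RMI1 and RMI2, of the complex that dissolves crossed-over duplexes, were lower by 1.5-fold or more as deposited, though RMI1 and RMI2 were not after centring, with trimmed mean scaling or with a pseudocount of 5, nor RMI1 with the trend over GC content and length removed. TOP3A, the topoisomerase of the complex, is not among the 42 genes and, named after its values were seen, had 28.6 TPM in metformin and 34.2 TPM in control, a ratio of 0.836. BLM, the helicase mutated in Bloom syndrome, had 12.8 TPM in metformin and 26.9 TPM in control, a ratio of 0.478 (0.438 to 0.521). Its scaffold RMI1 had 12.9 TPM in metformin and 20.4 TPM in control, and RMI2, which stabilises RMI1, had 17.1 TPM in metformin and 27.4 TPM in control, ratios of 0.629 and 0.624. BLM lies on chromosome 15 at 91260558 to 91358692 of hg19. BLM and RMI1 were listed at nearly equal levels in metformin (a ratio of 0.999 to each other), while BLM was the higher of the pair in control (1.32).

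In end resection MRE11 and EXO1 were lower relative to control than RAD50, NBN and RBBP8. MRE11, the nuclease of the MRN complex that senses broken ends, had 16.1 TPM in metformin and 26.8 TPM in control, a ratio of 0.600 (0.538 to 0.667). RAD50, which bridges the ends, had 44.2 TPM in metformin and 51.5 TPM in control, a ratio of 0.860 (0.827 to 0.894). NBN, which recruits ATM, had 47.8 TPM in metformin and 63.3 TPM in control, a ratio of 0.756 (0.720 to 0.793). None of these 3 intervals overlapped another, and MRE11 was the least abundant subunit in both libraries. EXO1, an exonuclease of long-range resection, had 18.5 TPM in metformin and 29.9 TPM in control, a ratio of 0.619. RBBP8, also called CtIP, which starts resection with MRE11, had 78.0 TPM in metformin and 85.6 TPM in control, a ratio of 0.911.

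The damage kinases and ATRIP had the median closest to control among the roles. None of these 5 genes was lower by 1.5-fold in TPM, against 7.03% of all measured genes. In the coverage column CHEK1 was lower by 1.5-fold, with a log2 difference of -0.61. ATM, the kinase of double-strand breaks, had 21.8 TPM in metformin and 23.1 TPM in control, a ratio of 0.943 (0.799 to 1.12). That interval can be too wide, because the pairs of ATM were estimated with a short transcript length. ATR, the kinase of stalled forks, had 22.7 TPM in metformin and 24.6 TPM in control, a ratio of 0.924 (0.873 to 0.978). ATM overlaps C11orf65 on the other strand, which was listed at 3.73 TPM in metformin and 1.08 TPM in control. ATRIP, the partner that ATR needs, had 11.3 TPM in metformin and 14.6 TPM in control, a ratio of 0.776. Of the effector kinases, CHEK1 had 34.7 TPM in metformin and 48.3 TPM in control, a ratio of 0.719 (0.657 to 0.785). CHEK2 had 30.3 TPM in metformin and 34.5 TPM in control, a ratio of 0.878 (0.791 to 0.977). CHEK1 shares exonic positions on the same strand with STT3A, listed at 79.2 TPM in metformin and 94.5 TPM in control. Strand cannot separate the reads of CHEK1 and STT3A at those positions. The median log2 difference over the kinases and ATRIP was -0.18. After centring on the median gene the log2 difference was 0.01 for ATM and -0.02 for ATR.

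The chromatin proteins that gather at a break went in opposite directions. H2AX, the histone variant that ATM and ATR phosphorylate, was the most abundant of the 42 genes, with 157 TPM in metformin and 291 TPM in control, a ratio of 0.539 (0.516 to 0.562). MDC1, which binds phosphorylated H2AX, had 72.9 TPM in metformin and 121 TPM in control, a ratio of 0.604 (0.586 to 0.622). TP53BP1, which binds the same chromatin and directs breaks to end joining, had 62.4 TPM in metformin and 51.7 TPM in control, a ratio of 1.21 (1.16 to 1.26). TP53BP1 was less abundant than MDC1 in both libraries, and its log2 difference stayed between 0.25 and 0.36 under the alternatives tried. H2AX lies on chromosome 11 at 118964585 to 118966177, MDC1 on chromosome 6 at 30667584 to 30685458 and TP53BP1 on chromosome 15 at 43699412 to 43802707 of hg19. H2AX is known to make a polyadenylated and a non-polyadenylated transcript, and a library of selected mRNA holds mainly the polyadenylated form.

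MSH6 is a subunit of the sensor of base mismatches, which also takes part in damage signalling. MSH6 had 95.4 TPM in metformin and 121 TPM in control, a ratio of 0.787 (0.758 to 0.816).

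The other genes of these pathways, listed by function with earlier results of these data known, had medians closer to that of all measured genes, -0.08. Of the 12 other Fanconi genes, 9 were below their control values and 2 were lower by 1.5-fold, with a median log2 difference of -0.23. Of 29 other homologous recombination genes, 19 (65.5%) were below control and 5 (17.2%) lower by 1.5-fold, with a median of -0.24. Over all measured genes 59.7% were below control and 7.03% lower by 1.5-fold. MMS22L, which acts in recombination at stalled forks, and FIRRM, a regulator of recombination, stood at 0.482 and 0.486 of control. The junction-cutting nuclease genes MUS81 and SLX1B were at 1.29 and 1.44 times control, though SLX1B has a near-identical copy and is uncertain. RPA1, a subunit of the single-strand binding complex, had 84.9 TPM in metformin and 94.6 TPM in control.

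Of 31 other checkpoint genes, 25 (80.6%) were below control and 3 (9.68%) lower by 1.5-fold, with a median of -0.22. The shares over all measured genes were 59.7% and 7.03%. CDC25A, a phosphatase that drives entry into S phase, stood at 0.582 of control and RIF1, which acts with TP53BP1, at 0.624. CDC25B, its relative of G2 phase, and BABAM2, a subunit of a BRCA1 complex, were at 1.28 and 1.18 times control. TOPBP1, which activates ATR, had 76.7 TPM in metformin and 104 TPM in control, and CLSPN, which brings CHEK1 to ATR, 28.4 TPM in metformin and 38.4 TPM in control. WEE1, a kinase that restrains CDK1, had 17.5 TPM in metformin and 20.5 TPM in control. None of the genes in these 3 lists was lower or higher by 2-fold on the log2 scale with a pseudocount of 1. Over all measured genes 1.24% were lower and 1.51% higher by 2-fold.

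**Figure D3:**
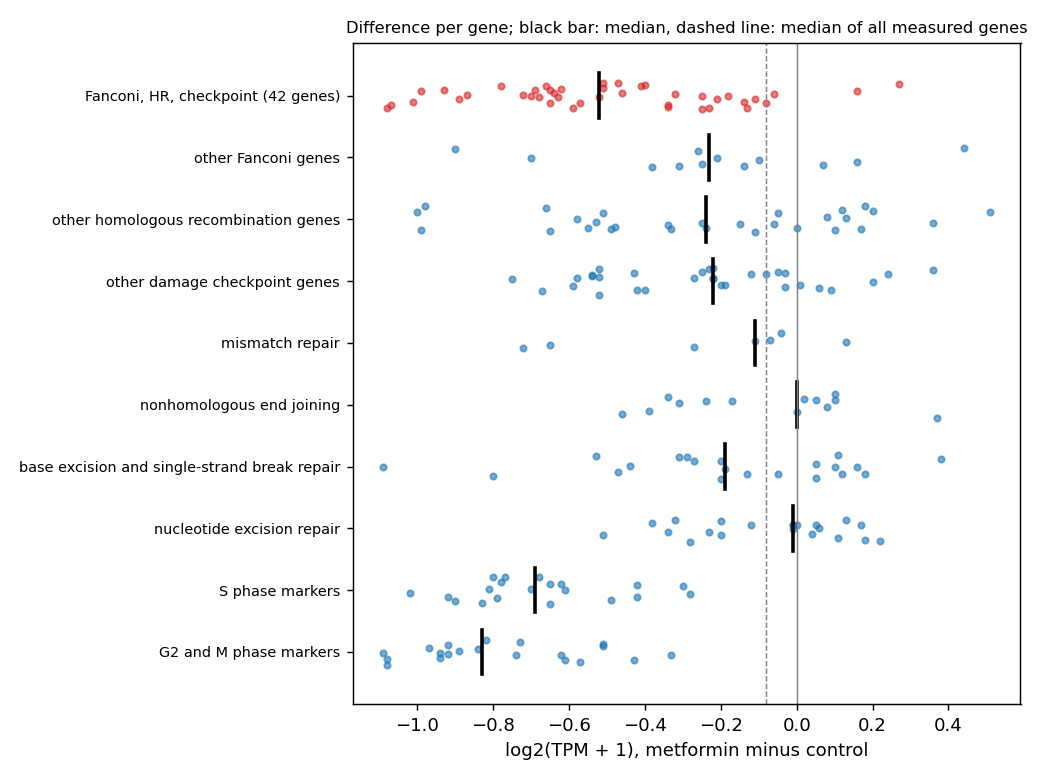
Difference of log2(TPM + 1), metformin minus control, for each gene of the 42 (red) and of 9 other lists (blue), with the median of each list as a black bar, a solid line at 0 and a dashed line at the median of all measured genes, -0.08. The 42 genes, at a median of -0.52, lie between the S phase markers at -0.69 and the other lists of DNA repair, whose medians run from -0.24 to 0.

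The 42 transcripts were on the whole longer and lower in GC content than other transcripts. Their median GC content was 42.1%, beside 48.4% for the other measured genes with a value, and their median length 4196 nt, beside 3147 nt. Over all measured genes the log2 difference went with GC content (Spearman correlation across genes 0.35 over 13185 genes), and over the 42 it was 0.26, in both cases across genes of the same pair of libraries. Among the 14 genes under 40% GC the median was -0.63, beside -0.26 for all measured genes of that range. Among the 9 genes at 50% GC or more the median was -0.34, beside 0.03, and each of the 9 lay below the median of its range. H2AX and XRCC3, at 66.8% and 62.8% GC, were the genes of highest GC content and stood at 0.539 and 0.541 of control. With the trend over GC content and length removed the median over the 42 genes was -0.44.

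**Figure D4:**
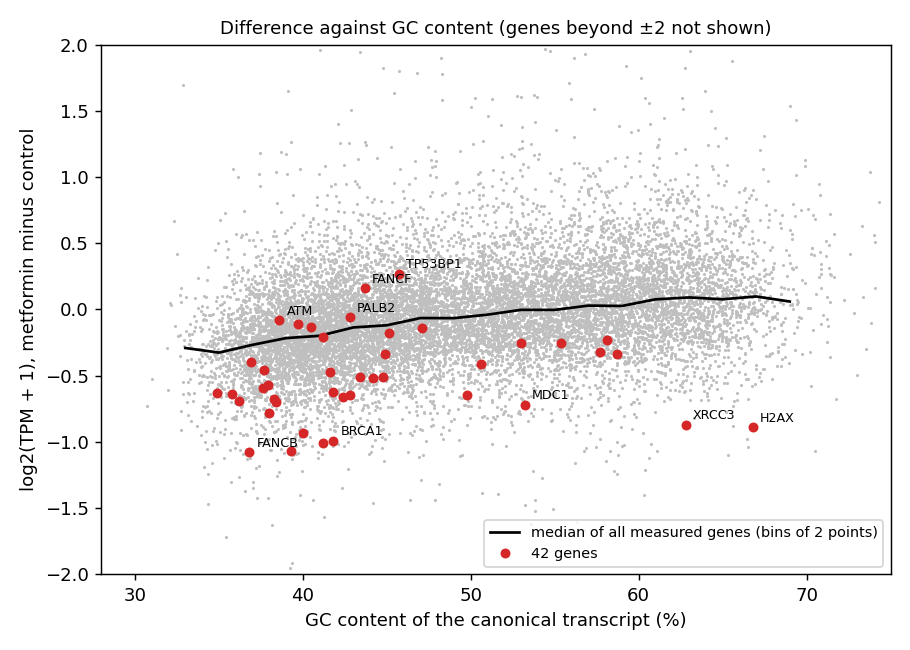
Difference of log2(TPM + 1), metformin minus control, against the GC content of the canonical transcript for all measured genes (grey) and the 42 genes (red), with the median of all measured genes in bins as a black line. The black line climbs with GC content, and 36 of the 42 genes lie below the median of all genes once that trend and the one over length are removed.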

How the data were processed

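RNA-seq of H1299 cells gave 1 library with 5 mM metformin and 1 control library. Per the labels' protocols, a TruSeq Stranded mRNA LT kit was used, with Bowtie2 and the build hg19 for mapping; Trimmomatic 0.38 and HISAT2 are named per the submitters' processing notes, and the aligner used for these tables is not settled by them. No label names the program behind the abundances. Per the file headers, the deposited tables hold coverage, FPKM and TPM per gene. TPM was used for main values, and the deposited FPKM and the deposited coverage (a depth signal over exons) for alternatives and for depth.

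Symbols came from a RefSeq table (GRCh38, used for naming), with 27559 IDs matched and 126 not. For the 353 IDs with several rows, values were added up; none was among the 42 genes. Differences are of log2(TPM + 1); genes were measured at 1 TPM or more in a library and counted past 1.5-fold or 2-fold on that scale, so folds of low genes are understated. Ratios are of plain TPM. Aligned bases came from the ratio of coverage to FPKM, with 202 bases a read pair, the commonest total in short, little-covered genes (45 of 777 in metformin and 35 of 826 in control). Each gene's pairs were then estimated, by FPKM times the shorter of the canonical and the median GENCODE 44 transcript length, and summed to 86.1% and 86.4% of the total in metformin and control, so counting intervals are on the wide side. PCR duplicates can make them too narrow. By GENCODE 44 exons matched on symbol, 20 of the 42 genes overlap another listed gene, 4 on the same strand and 16 on the other. RAD51L3-RFFL over RAD51D and MIR548L over MRE11 were found to overlap by span only and were not counted.

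The genes, lists and alternatives were chosen with earlier results of these data known. All 42 genes are named; of each other list the 2 highest and 2 lowest differences may be named, plus 10 genes whatever their values, and some of these genes are not reported here. Steps were tested on simulated data. Protein sequences were not used here. Python 3.11.15, numpy 2.4.6, pandas 2.3.3 and scipy 1.17.1 were used.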

Additional observations from a re-analysis of the deposited data

How the results depend on the processing

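No paired analysis was possible because each group has 1 library. The median ran from -0.54 to -0.43 over the alternatives on the whole set, of which 41 genes passed a mean of 5 TPM. Over the 22 genes with no exon overlap found, the median was -0.64. Of the main count of 19 genes lower by 1.5-fold, 12 remained after centring on the median gene, 12 with trimmed mean scaling and 10 with the trend over GC content and length removed (against 4.99%, 5.06% and 5.40% of all genes so treated), and no other gene was added in these 3. The count lower by 2-fold, 3 in the main setting, was 1 after centring, 1 with trimmed mean scaling and 0 with a pseudocount of 5, which shrinks differences by construction. Leaving out genes whose exons were found to overlap another gene left 22 genes, all 22 below 0, against 59.7% of all measured genes. The 2 genes above 0 in the main setting, FANCF and TP53BP1, were among those left out. GAS2, the gene opposite FANCF, was listed at 0 TPM in both libraries. Of these 22 genes 1 was lower by 2-fold, against 1.24%, since FANCB and FANCL were left out. The median of nucleotide excision repair turned from -0.01 to 0.08 under both centring and trimmed mean scaling, and that of S phase markers was -0.60 and -0.61. The cause of the scaling dependence was not tested. No gene past 1.5-fold changed direction under any alternative. FANCF, at about 1 TPM, is limited by depth.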

Other observations

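Repair routes other than homologous recombination had medians nearer to that of all measured genes. Over all measured genes 59.7% were below control, 7.03% lower by 1.5-fold and 5.40% higher by 1.5-fold. Of 13 genes of nonhomologous end joining, 7 were below their control values, none was lower or higher by 1.5-fold and the median log2 difference was 0. XRCC5, which encodes the Ku80 end-binding protein, had 396 TPM in metformin and 521 TPM in control, and XRCC4, a partner of the end-joining ligase, 28.4 TPM in metformin and 39.4 TPM in control. APLF, an end-joining scaffold, had 5.01 TPM in metformin and 3.64 TPM in control. Of 21 genes of nucleotide excision repair, 12 were below control, none past 1.5-fold, between XPA, a damage verification protein, at 0.689 and DDB2, a sensor of ultraviolet lesions, at 1.17 times control. In base excision repair 13 of 21 genes were below control with a median of -0.19. NEIL3, a glycosylase that also unhooks crosslinks, stood at 0.442 of control (0.383 to 0.510), and FEN1, a flap nuclease of replication, at 0.570. PCNA, the replication clamp that was listed with mismatch repair, had 150 TPM in metformin and 235 TPM in control.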
